A study of Mus musculus with 10 samples.

Results

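RING-between-RING (RBR) ubiquitin ligases were examined in MC38 cells, a mouse colon carcinoma line, taken from tumors of C57BL/6J mice. Tumor cells that carried dTomato and lacked the leukocyte protein CD45 were sorted on day 21 after implantation and profiled by RNA sequencing of polyadenylated RNA, with 1 library per mouse. The groups were 5 mice fed a control diet and 5 mice fed a high-fat diet, and both carried the same dTomato-positive MC38 cells. MC38 is a single line, so the mice differ in host and diet but share the origin of the tumor. The 10 genes described here are Rnf19a, Rnf19b, Rnf14, Rnf31, Rbck1, Rnf144a, Rnf144b, Rnf216, Arih1 and Arih2, of 53379 genes in the count table. Rnf19b was chosen by its measured diet difference, because it was 1 of 9 genes whose adjusted p in the diet comparison lay under 0.05, and the other members were taken for belonging to the same family. All 10 were in the table, and 9 passed the filter on low counts. Rnf144a did not.

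An RBR ligase takes ubiquitin from an E2 enzyme bound to its first RING domain, holds it on a catalytic cysteine of its second RING domain, and then passes it to the substrate. Rnf31, also called HOIP, and Rbck1 form the linear ubiquitin chain assembly complex (LUBAC) with Sharpin, and that complex joins ubiquitins head to tail at receptors that activate NF-kB. Rnf19b is known from natural killer cells and macrophages, where it is induced on activation. Arih1 and Arih2 work together with neddylated cullin ligases.

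Levels are CPM, counts relative to library size, after TMM scaling, which makes libraries of different composition comparable. Differences are high-fat minus control on the log2 scale from an edgeR fit across all tested genes, whose adjusted p is taken over all of them. Control libraries held 17050797 to 18653705 counts and high-fat libraries 16513388 to 17154050, a difference in mean total at p = 0.0317 by an exact two-sided permutation test. The labelled cell type was checked against markers. Epcam, Krt8 and Vil1, which mark colon epithelium, had 16, 47 and 15 counts over all 10 libraries, so the epithelial identity of the line is not visible in these transcripts. Cdh1, on the same list, had 271 counts and was the 1 of 8 that passed the filter. Fibroblast markers had the largest sums, between 1393 and 1986 CPM in control and between 1150 and 2092 CPM in high-fat libraries. Which cells these transcripts came from was not tested. Leukocyte markers summed to between 23.8 and 167 CPM in control libraries and between 17.8 and 59.9 CPM in high-fat libraries. All 7 were lower on the high-fat diet, 2 of them at an unadjusted p under 0.05 and none after adjustment. Among them Ptprc, which encodes CD45, had 1240 counts over all 10 libraries. Macrophage markers summed to between 56.7 and 393 CPM in control libraries and between 26.7 and 61.2 CPM in high-fat libraries. All 10 of them were lower on the high-fat diet at an unadjusted p under 0.05, and none was lower after adjustment. Control mice 3 and 4 stood apart with the highest macrophage sums, 353 and 393 CPM. Markers of natural killer and T cells summed to between 0.743 and 29.5 CPM in control and between 2.68 and 20.3 CPM in high-fat libraries, and 4 of 11 passed the filter. No marker was at 0 in every library. In such bulk samples fewer cells of a type and less RNA per cell cannot be told apart, and the part of these cells in the results below was not tested.

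A pair of promoters is shown because Rnf19b and Rnf31 were the members whose diet groups did not overlap. They come from RefSeq windows on GRCm38.p6, which held 8 of the 10 members. Each window holds 250 bases before a start, and the Rnf31 stretch ends where the GENCODE gene begins. The Rnf19b stretch is chr4:129057894-129058143 and the Rnf31 stretch is chr14:55591492-55591707, both on the plus strand. Capitals mark the SP1 box GGGCGG on either strand.

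Rnf19b: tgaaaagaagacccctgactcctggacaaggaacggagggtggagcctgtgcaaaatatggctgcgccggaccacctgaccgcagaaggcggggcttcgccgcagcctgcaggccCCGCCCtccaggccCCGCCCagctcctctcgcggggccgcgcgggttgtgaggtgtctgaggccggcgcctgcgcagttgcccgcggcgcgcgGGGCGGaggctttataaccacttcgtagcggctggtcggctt
Rnf31: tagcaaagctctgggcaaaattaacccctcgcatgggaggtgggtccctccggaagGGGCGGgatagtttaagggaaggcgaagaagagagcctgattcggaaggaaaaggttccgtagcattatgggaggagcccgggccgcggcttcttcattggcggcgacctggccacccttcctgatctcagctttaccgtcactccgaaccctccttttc

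The 250 bases before the Rnf19b start held 26 CpG and 69.2% G and C, against a median of 6 CpG and 52.4% over all 32851 windows. They held 3 SP1 boxes, a motif found in 32.7% of all windows and in 7 of the 11 member windows. Over the member windows CpG ran from 1 to 40, with 40 CpG and 80.8% G and C in that of Arih1. The Rnf31 window held 14 CpG, 58.4% G and C and 2 SP1 boxes. Its box 14 bases before the start lies past the printed stretch. Neither the Rnf19b nor the Rnf31 window held the kB consensus (5.00% of windows) or the STAT element TTCNNNGAA (7.02%). Both also lacked the interferon-stimulated response element, read as GAAA, any 2 bases and GAAA (2.98%). Each motif was searched on both strands. Each of these 3 motifs was found in 1 of the 11 member windows, the STAT element in that of Rnf144b, the kB consensus in that of Arih2 and the interferon element before one of the starts of Rbck1. The last is shown, as Rbck1 is the partner of Rnf31, with 10 bases on either side, from chr2:152332427-152332456 on the minus strand, with the match in capitals.

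Rbck1: ggactgccacTTTCACTTTCtcttccgggg

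The Rbck1 stretch lies inside the GENCODE gene, whose minus-strand start is at 152332653. The window at the outer Rbck1 start held no interferon element. These matches describe letters in a window and say nothing of whether a factor binds there.

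Rnf19b (ENSMUSG00000028793.15, chromosome 4, 129058271 to 129085886, plus strand) is a protein-coding gene with 10 exon blocks, and it was the most abundant of the family. In control mice 1 to 5 its level was 288, 254, 286, 269 and 274 CPM. In high-fat mice 1 to 5 it was 350, 365, 347, 362 and 374 CPM. Every high-fat mouse lay above every control mouse, with a gap between 288 and 347 CPM. The means were 274 ± 13.8 CPM (SD, n = 5) and 360 ± 11.2 CPM (SD, n = 5), a 1.31-fold difference, or 0.39 (SE 0.06) on the log2 scale.

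This difference selected the gene and is therefore given as a description without a test. Of all 14337 genes tested, 0.0628% passed the adjusted threshold, and Rnf19b was the 9th and last of the genes inside it, at 0.0409. The next gene inside was Slc5a4a, at 0.0382, and the first outside was Slco1a5, at 0.0620. The size of the difference held steadier than its place in that list. Over 19 alternative fits it lay between 0.35 and 0.43, while Rnf19b was inside the threshold in 8 of them. With library size as a covariate its adjusted p was 0.813, and in DESeq2 it was 4.9e-10.

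No 50-base window of the longest Rnf19b transcript occurred in a transcript of another gene, and no exon of another gene overlapped its exons. Its levels also varied little between mice of the same diet. The SD of log2 CPM within diets was 0.06, and 3.73% of the 4801 tested genes with a mean of at least 50 CPM had a smaller one (median 0.14). In control mice 3 and 4, the libraries with the most macrophage transcript, Rnf19b stood at 286 and 269 CPM, inside the range of the other controls. With control mice 3 and 4 left out the difference was 0.40 (SE 0.08), and with the leukocyte and macrophage level as a covariate it was 0.43 (SE 0.08). With diet means subtracted, Rnf19b and the macrophage marker mean had r = 0.54 (exact permutation p = 0.213). The part of macrophage transcripts in the Rnf19b difference was not tested.

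**Figure D1:**
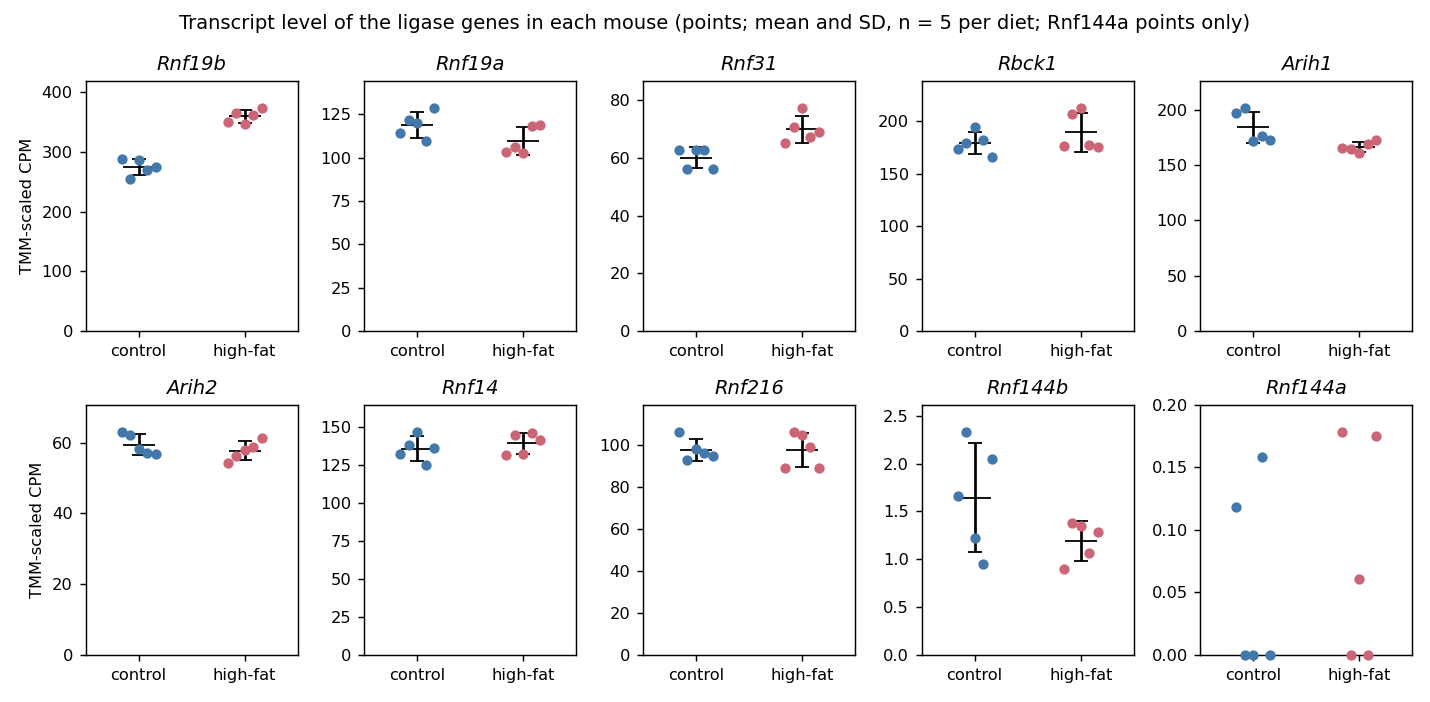
Level of each of the 10 ligase genes in TMM-scaled CPM (vertical axes from 0, scaled per gene) in 5 control and 5 high-fat mice; points are mice and black marks give the mean and SD, with points alone for Rnf144a. Rnf19b lies between 254 and 288 CPM in control mice and between 347 and 374 CPM in high-fat mice, and for Rnf31 too the diets do not overlap.

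Rnf19a, the closest relative of Rnf19b and known as dorfin, went the other way in sign. Its level in control mice 1 to 5 was 114, 121, 120, 110 and 129 CPM. In high-fat mice 1 to 5 it was 103, 106, 103, 118 and 119 CPM. The diets overlapped, and the difference of -0.11 (SE 0.07) did not pass the test (edgeR adjusted p = 0.574). The 95% interval of the Rnf19a difference ran from -0.26 to 0.04. Whether the pair differed in their response to diet was not tested. Rnf19a (ENSMUSG00000022280.9) lies on chromosome 15, 36239933 to 36283147, minus strand. A microRNA gene, Mir8097, overlaps 119 bases of its exons on the same strand, and 3.76% of its windows were shared with other genes.

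The ligases of the linear ubiquitin complex were both higher in mean on the high-fat diet. Rnf31, its catalytic subunit (ENSMUSG00000047098.18, chromosome 14, 55591708 to 55603693, plus strand), stood at 62.7, 56.2, 62.7, 62.6 and 56.1 CPM in control mice 1 to 5. High-fat mice 1 to 5 had 65.2, 70.7, 77.3, 67.4 and 68.8 CPM. All 5 high-fat mice lay above all 5 controls, though the nearest values were 62.7 and 65.2 CPM. The difference was 0.22 (SE 0.07), 1.16-fold, with an unadjusted p of 0.00711, and it did not pass over all genes (edgeR adjusted p = 0.239).

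Rbck1, which binds Rnf31 in the complex, was at 174, 179, 195, 182 and 166 CPM in control mice 1 to 5. In high-fat mice 1 to 5 it was at 176, 207, 213, 177 and 175 CPM. High-fat mice 2 and 3 were above all controls and the other three lay among them. Its difference was 0.08 (SE 0.08, edgeR adjusted p = 0.738), with an interval from -0.08 to 0.25. It was 0.04 without high-fat mouse 3 and 0.17 with the leukocyte and macrophage covariate. Rbck1 (ENSMUSG00000027466.15) lies on chromosome 2, 152316334 to 152332653, minus strand.

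Irf9 is a transcription factor of the interferon response and a member of the interferon list. On the same strand, 123 bases of Rnf31 exon overlap Irf9 exon. Irf9 was at 45.7 ± 13.6 CPM (SD, n = 5) in control and 66.7 ± 5.84 CPM (SD, n = 5) on the high-fat diet, also without overlap. The shared part is 2.15% of the Rnf31 exon length, and its share in the Rnf31 counts was not tested.

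Arih1 and Arih2 attach the first ubiquitin to substrates held by cullin ligases. Arih1 was at 197, 202, 172, 176 and 173 CPM in control mice 1 to 5 and at 165, 164, 161, 169 and 172 CPM in high-fat mice 1 to 5. The highest high-fat mouse, at 172.3 CPM, lay just above the lowest control, at 171.9 CPM. The difference of -0.14 (SE 0.07) had an unadjusted p of 0.0456 and did not pass (edgeR adjusted p = 0.398). Control mice 1 and 2 were the high ones, and the other three controls were close to the high-fat mice. Arih2 was at 59.5 ± 2.94 CPM (SD, n = 5) in control and 57.7 ± 2.70 CPM (SD, n = 5) on the high-fat diet, a difference of -0.04 (SE 0.06, edgeR adjusted p = 0.843). Its counts are less certain, since 18.4% of the windows of its longest transcript also occur in other genes, Gm12263 among them. Both genes lie on chromosome 9 on the minus strand, Arih1 (ENSMUSG00000025234.11) at 59388258 to 59486618 and Arih2 (ENSMUSG00000064145.12) at 108602942 to 108649386.

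Rnf14, first described as a coactivator of the androgen receptor, and Rnf216, which acts on Toll-like receptor signalling, had the smallest differences. Rnf14 (chromosome 18, 38284537 to 38317849) ranged from 125 to 147 CPM in control mice and from 132 to 146 CPM in high-fat mice, a difference of 0.04 (SE 0.06, edgeR adjusted p = 0.872). Rnf216 (chromosome 5, 142990893 to 143112994) was at 97.7 ± 5.26 CPM in control and 97.5 ± 8.23 CPM in high-fat mice (SD, n = 5 each). Its difference was 0.00 (SE 0.07, edgeR adjusted p = 0.994), with an interval from -0.16 to 0.15. That sign turned under several settings. Of its exon bases 220 overlap the processed pseudogene Gm43380 on the opposite strand.

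Rnf144b, a ligase induced by p53, was scarce. It was at 1.66, 2.33, 1.22, 0.951 and 2.05 CPM in control mice 1 to 5 and at 0.893, 1.37, 1.34, 1.06 and 1.28 CPM in high-fat mice 1 to 5, from 15 to 44 counts per library. The control mice spanned all but the lowest high-fat value, and the difference of -0.46 (SE 0.26) did not pass (edgeR adjusted p = 0.536). It was -0.30 without control mouse 2, -0.76 without control mice 3 and 4 and -0.79 with the leukocyte and macrophage covariate. Its relative Rnf144a had 12 counts in all, with 0 counts in 5 libraries and at most 3 in any, and was not tested. A count of 0 allows up to 3 counts, or 0.159 to 0.179 CPM in those 5 libraries, by counting error alone. Rnf144b lies on chromosome 13, 47122656 to 47247991, and Rnf144a on chromosome 12, 26300964 to 26415254.

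Apart from Rnf19b, 8 members were tested. Of these 3 had a positive and 5 a negative difference, with a median of -0.02, and none passed the adjusted threshold. At an unadjusted p under 0.05 there were 2, Rnf31 higher and Arih1 lower, where 12.1% of all genes reached this, 5.45% higher and 6.62% lower. The diets did not overlap for 1 of the 8, Rnf31, against 2.18% of all genes. In the plot of differences with intervals, Rnf19b, selected by its difference, had the largest positive value and the scarce Rnf144b the widest interval.

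**Figure D2:**
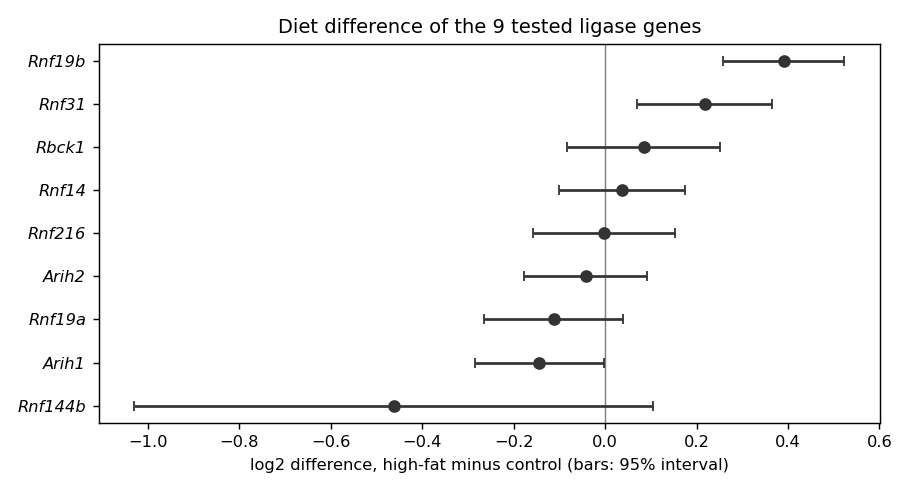
Log2 difference, high-fat minus control, of the 9 tested ligase genes (points) with 95% intervals (bars) from the fit over 5 control and 5 high-fat libraries. Rnf19b, selected by this difference, is at 0.39 and Rnf31 at 0.22. The other 7 lie between -0.46 and 0.08, and the Rnf144b interval runs from -1.03 to 0.11.

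Levels can be compared between genes after division by exon length. Per kilobase of exon, Rnf19b averaged 110 CPM over the 10 libraries, 2.75 times the 40.1 CPM of Rbck1, the next in order. Rnf14 followed at 28.8, Rnf19a at 25.8 and Arih1 at 22.7 CPM per kilobase. Rnf216 was at 13.6, Rnf31 at 11.3, Arih2 at 7.64, Rnf144b at 0.287 and Rnf144a at 0.0094 CPM per kilobase. The ranges over mice overlapped between Rnf14 and Rnf19a, between Rnf19a and Arih1, and between Rnf216 and Rnf31. Within libraries, Rnf14 was above Rnf19a in 9 of 10, Rnf19a above Arih1 in 10 and Rnf216 above Rnf31 in 10. The catalytic subunit Rnf31 was thus below its partner Rbck1 in every library. With the longest transcript as length, Rbck1 was at 77.3 and Rnf19b at 125 CPM per kilobase, Rnf31 and Arih2 changed places, and Rnf19a was above Arih1 in 8 of 10 libraries.

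**Figure D3:**
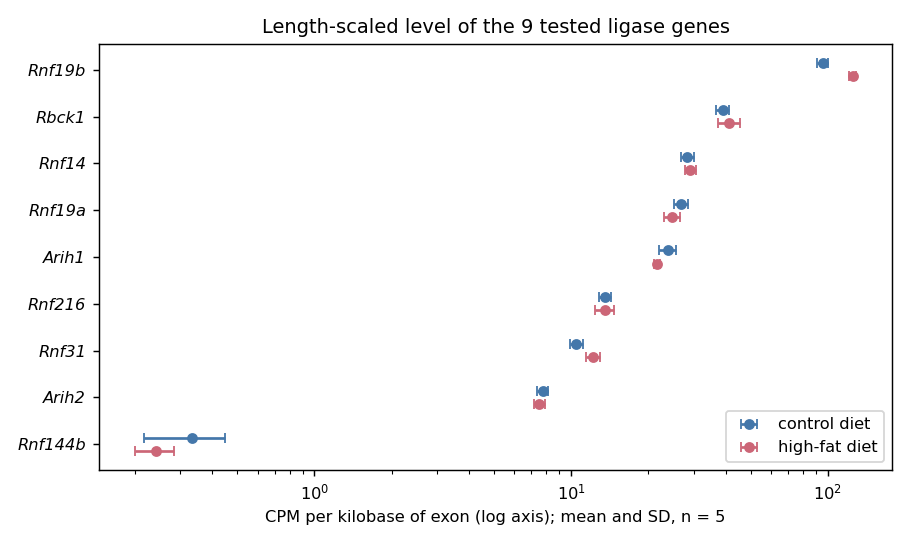
CPM per kilobase of exon (log axis) of the 9 tested ligase genes in control and high-fat mice; points are means and bars the SD over 5 mice. Rnf19b leads on both diets, at 95.5 and 125 CPM per kilobase, and Rnf144b is the lowest, at 0.333 and 0.241.

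Partners of the family were read from lists of related genes. In all 8 lists, 86 tested genes, no gene passed the adjusted threshold. Over all tested genes 51.4% of differences were positive and the median was 0.01. At an unadjusted p under 0.05, 5.45% of all tested genes were higher and 6.62% lower. The further RBR ligases Ankib1, Cul9 and Rnf217 had differences between -0.16 and 0.17.

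The E2 list had 8 genes, of which Ube2v1 encodes an E2 variant without catalytic activity. Their median difference was -0.04, with 3 positive and 2 higher at an unadjusted p under 0.05. Ube2l3, the E2 most closely tied to RBR ligases, was at 135 ± 5.90 CPM (SD, n = 5) in control and 134 ± 8.87 CPM (SD, n = 5) on the high-fat diet. Ube2l6, a related E2 that also serves the interferon-induced modifier ISG15, was at 56.8 ± 12.8 and 76.4 ± 4.67 CPM, a difference of 0.43 (SE 0.13, edgeR adjusted p = 0.235). Ube2v1, at 0.41 (SE 0.18, edgeR adjusted p = 0.393), and Ube2d2a, at -0.11 (SE 0.07), were the others of largest size. Ube2v1 was scarce, with 28 to 52 counts per library.

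Sharpin, the third subunit of the linear ubiquitin complex, was at 46.0 ± 4.50 CPM in control and 48.4 ± 5.04 CPM in high-fat mice. The enzymes that cut linear chains were close between diets, with differences of 0.09 (SE 0.07) for Otulin and -0.09 (SE 0.06) for Cyld. Spata2, which bridges Cyld to the complex, was at 70.1 ± 1.34 CPM in control and 61.7 ± 3.84 CPM in high-fat mice, without overlap between diets (edgeR adjusted p = 0.256). The 4 genes had a median of -0.01 (0.02 with the leukocyte and macrophage covariate, and also without control mice 3 and 4), and Spata2 was the 1 with an unadjusted p under 0.05.

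Among 18 genes of the TNF receptor complex and readers of linear chains, 10 were positive, the median was 0.02, and 2 were higher and 2 lower at an unadjusted p under 0.05. Tab2, an adaptor of the kinase TAK, averaged 240 ± 21.9 CPM on control and 201 ± 8.37 CPM on high-fat diet (SD, n = 5 each; edgeR adjusted p = 0.197). The apoptosis regulators Birc3 and Casp8 had differences of 0.25 (SE 0.09) and 0.25 (SE 0.08). Ikbkg, which encodes NEMO and binds linear chains, was at 49.8 ± 2.58 and 46.7 ± 4.62 CPM. Of 10 NF-kB target genes 9 were positive and 4 had an unadjusted p under 0.05, all higher, with a median of 0.19. That median was 0.33 with the leukocyte and macrophage covariate, 0.28 without control mice 3 and 4 and 0.13 without high-fat mouse 2. Endothelial markers had the same sign, with 3 of 3 tested positive, a median of 0.95 and 2 at an unadjusted p under 0.05. Pecam1, the most abundant of them, averaged 17.2 and 18.2 CPM, a difference of 0.08 (SE 0.15, edgeR adjusted p = 0.878). Cdh5, at 0.95 (SE 0.38), and Vwf, at 1.77 (SE 0.79), were scarce, averaging 2.38 and 0.830 CPM in control mice. Sums of the endothelial markers were 17.8 to 25.6 CPM in control and 23.2 to 36.0 CPM in high-fat libraries. The part of these markers in the NF-kB target values was not tested. The chemokine gene Ccl2 had a difference of 0.47 (SE 0.15), the adhesion gene Vcam1 one of 0.40 (SE 0.11) and Traf1 one of 0.34 (SE 0.10), with edgeR adjusted p of 0.247, 0.197 and 0.201.

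The 15 cullin and neddylation genes, partners of Arih1 and Arih2, lay between -0.12 and 0.14 with a median of -0.02, and none had an unadjusted p under 0.05. Nedd8 had the largest positive difference, 0.14 (SE 0.08), and Senp8, at -0.12 (SE 0.12), and Cul5, at -0.11 (SE 0.07), the largest negative ones. Of 10 p53 targets, listed beside Rnf144b, 7 were negative and 3 were lower at an unadjusted p under 0.05. Cdkn1a, the cell cycle inhibitor p21, was at 85.3 ± 18.8 and 59.2 ± 14.5 CPM (edgeR adjusted p = 0.289), and Sesn2 and Trp53inp1 had differences of -0.46 (SE 0.15) and -0.27 (SE 0.22).

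**Figure D4:**
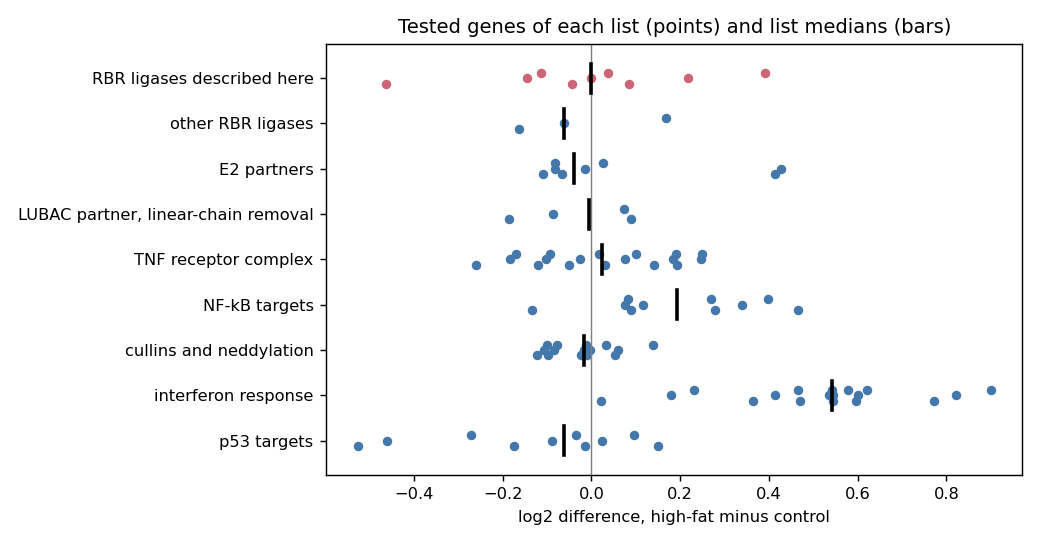
Log2 difference, high-fat minus control, of each tested gene (points) in the RBR ligases and 8 related lists; black bars are list medians. The 18 interferon response genes all lie above 0, with a median of 0.54, while the ligases spread from -0.46 to 0.39.

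Interferon transcripts had the same sign of difference as Rnf19b and Rnf31. All 18 listed genes had positive differences, with a median of 0.54, and 14 had an unadjusted p under 0.05. Of all tested genes, 5.45% were higher at that level. The list was chosen with earlier results of these data known, so its counts are only a description. The median was 0.95 with the leukocyte and macrophage level as a covariate and 0.79 without control mice 3 and 4. The largest were Ifit3 at 0.90 (SE 0.26), Rsad2 at 0.82 (SE 0.29) and Ifit1 at 0.77 (SE 0.21), with edgeR adjusted p of 0.212, 0.287 and 0.199. The list mean in control mice 1 to 5 was 6.82, 6.27, 7.07, 7.15 and 6.38 log2 CPM, and in high-fat mice 1 to 5 it was 7.09, 7.32, 7.38, 7.35 and 7.30. Control mouse 4, at 7.15, lay above high-fat mouse 1, at 7.09, in interferon transcripts. The part of interferon transcripts in the Rnf19b and Rnf31 differences was not tested.

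**Figure D5:**
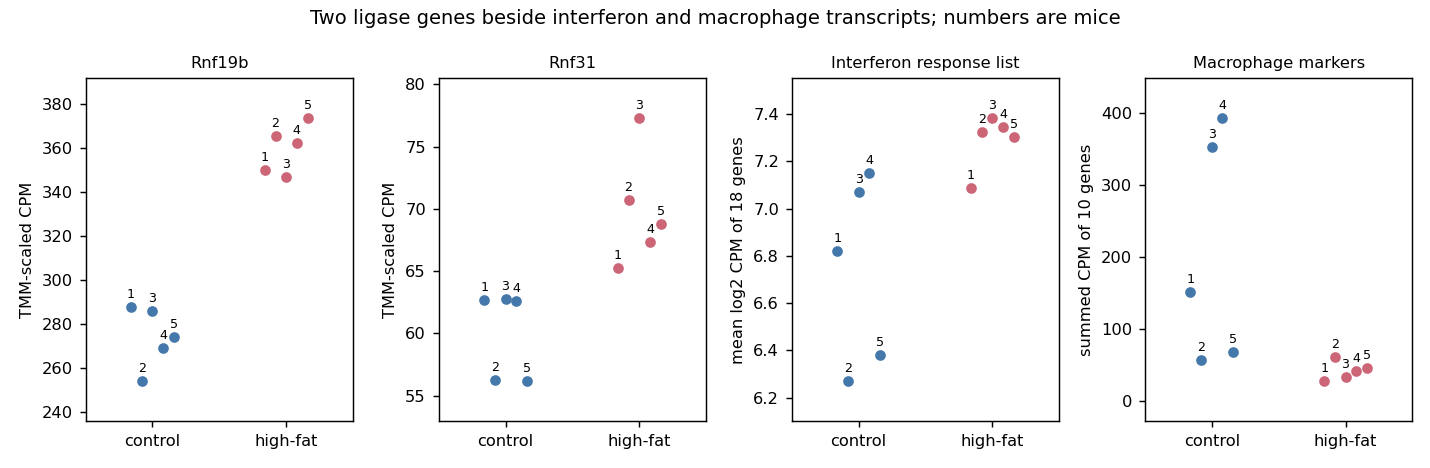
Rnf19b and Rnf31 in CPM, the mean log2 CPM of 18 interferon response genes and the summed CPM of 10 macrophage markers in each of 5 control and 5 high-fat mice, numbered; the vertical axes do not all start at 0. Rnf19b separates the diets, the interferon means of control mouse 4 (7.15) and high-fat mouse 1 (7.09) cross, and macrophage sums are highest in control mice 3 and 4.

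The genes whose levels followed Rnf19b most closely were sought among 10837 other genes with a mean of at least 5 CPM, by Pearson r over the 10 libraries. Gng11, a G protein gamma subunit, came first with r = 0.96, followed by Grk5, a receptor kinase, at 0.95, Whamm at 0.94, 2610001J05Rik at 0.94 and Fbxo36 at 0.93. All of them were higher in mean on the high-fat diet, and Gng11 was itself inside the threshold (edgeR adjusted p = 0.0382). Rnf19b was chosen by its diet difference and the libraries share the diet split. These values therefore describe likeness across the diets as well as between mice, and in part repeat that choice. None of these 5 genes was among the 5 closest with diet means subtracted. Of the 7 other members at that level, Rnf31 had the highest r with Rnf19b, 0.82, and Arih1 the lowest, -0.70. With diet means subtracted these were 0.27 and -0.16, and Rnf14 had the highest, 0.39.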

How the data were processed

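The authors deposited a table of raw counts per gene with a column for each mouse. For builds GRCm38 and mm10 appear in the submitters' processing notes, and for tools DESeq2 1.24.0, BWA 0.7.12, FastQC 0.11.5 and cutadapt 1.15, with no role stated. How reads were counted, and with which strand setting, is not given in the sources used here, so reads of opposite-strand genes cannot be told apart. Symbols for 53274 of 53379 genes came from GENCODE M21. Any pair of libraries differed by more than sampling noise (chi-square over degrees of freedom at least 8.29), so all 10 were kept. Genes were tested in edgeR 4.0.16 (R 4.3.3) with TMM scaling, filterByExpr, robust quasi-likelihood fits, diet as the term and Benjamini-Hochberg adjustment over 14337 genes at 0.05, after a check on simulated data. SE is the log2 change over the root of F, and intervals are 95%. DESeq2 1.42.0 and limma 3.58.1 were alternatives. Log2 CPM used a prior count of 2. Members and lists were chosen with earlier results of these data known. Named list genes are the 3 of mean CPM at least 1 with the largest absolute difference in each list, plus Sharpin, Otulin, Cyld, Ikbkg and Ube2l3; some listed genes are not reported here. Genes like Rnf19b are the 5 with the highest r, as they stand and with diet means subtracted. Irf9 was named for its overlap with Rnf31, Epcam, Krt8 and Vil1 for their low counts and Cdh1 for passing the filter, after values were seen. Ptprc was named as the gene of CD45, and Pecam1, Cdh5 and Vwf as the tested endothelial markers, also after values were seen. Mouse numbers were not stated to pair mice across diets, and the count columns number the mice consecutively from one diet to the other.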

Additional observations from a re-analysis of the deposited data

How the results depend on the processing

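The Rnf19b difference kept its sign in all 19 alternatives and moved by less than its spread between mice. The count of genes past the threshold, 9 in the reported fit (6 higher, 3 lower), was 53 with no low-count filter, 5 in limma-voom, 316 in DESeq2 (106 higher, 210 lower), 0 with library size as a covariate (817 genes at an unadjusted p under 0.05), 409 with the leukocyte and macrophage level as a covariate and 276 with control mice 3 and 4 left out. Leaving out 1 library gave 1 to 27 genes. With the mouse number as a replicate block it was 16, and the Rnf19b difference was 0.39 (edgeR adjusted p = 0.0925). Deviations of same-numbered mice correlated between -0.36 and 0.33, and so few values cannot decide whether the numbers pair the mice. Members past the threshold, 1 in the reported fit, were 0 with the block, with library size and in limma-voom, and 0 to 1 with 1 library left out. It was 1 without control mouse 3 and without high-fat mouse 1, and 0 without any other library. The cause was not tested. The Rnf216 difference turned sign to 0.0030 with RLE size factors and in DESeq2, to 0.058 with the leukocyte and macrophage covariate, and lay between -0.028 and 0.035 with 1 library left out. No other member turned sign (Rnf14 0.01 to 0.07, Arih2 -0.07 to -0.02 over all alternatives), and none but Rnf19b passed in any alternative; Rnf31 came closest, at 0.0604 with that covariate. At these depths Rnf144a could not be measured, and Rnf144b rests on few counts.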

Other observations

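After each diet's mean was subtracted, the genes closest to Rnf19b over the 10 libraries were Tmco4 (r = 0.955), Gtf3c6 (0.90), Isg20 (0.90), Tmem167b (0.88) and Smug1 (0.87), none of them among the 5 closest with diet means kept. Their own diet differences lay between -0.12 and 0.02. These values are the highest of 10837 and are given without a test.

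On the same scale, 54 relations were computed, among the 9 tested members and of each member with the interferon list mean and the macrophage marker mean. None passed adjustment, the smallest adjusted value being 0.221 (4 had an unadjusted p under 0.05 by exact permutation within diets). Rnf31 with the interferon list, which holds Irf9, had the smallest p, at r = 0.76 (exact permutation p = 0.0041, adjusted 0.221) and a rank correlation within diets of 0.65 (exact permutation p = 0.0761). Without high-fat mice 1 and 3, farthest from the Rnf31 median, r was 0.88. Rnf31 with the macrophage markers had r = 0.67 (exact permutation p = 0.0558, adjusted 0.502), and 0.89 without those mice. Rnf31 and Rbck1 of the linear ubiquitin complex had r = 0.74 (exact permutation p = 0.0151, adjusted 0.312, rank correlation 0.70 with exact permutation p = 0.0522) and r = 0.55 without those mice. Rnf19b with the interferon list had r = 0.50 (exact permutation p = 0.273, adjusted 0.721, rank correlation -0.05 with exact permutation p = 0.942), and 0.17 without control mice 1 and 2. With the macrophage markers Rnf19b had r = 0.54 (exact permutation p = 0.213, adjusted 0.677), and 0.35 without the same mice. The other two with an unadjusted p under 0.05 were Arih1 with Arih2, at r = 0.78 (exact permutation p = 0.0174, adjusted 0.312, rank correlation 0.60), and Rnf31 with Rnf216, at r = 0.68 (exact permutation p = 0.0384, adjusted 0.502, rank correlation 0.80). Without the 2 mice farthest from the first gene's median these were 0.65 and 0.52.

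In 18 checks of the 9 tested members, each within 1 diet, no mouse lay far enough from the others to stand out by Dixon's criterion.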
